A study of Danio rerio with 6 samples.

Results

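The genes described are 10 transcription factor genes of the AP-1 and immediate-early class, namely fosab, fosb, fosl1a, fosl2, jun, junba, junbb, atf3, egr1 and nr4a1. They were taken by gene symbol, each symbol matched 1 row of the count files, and together they are 10 of 36351 gene rows. All 10 passed the filter on low counts, which left 20438 genes. Bulk RNA was sequenced from zebrafish cells sorted for dsRed, taken from skeletal tissue at 10 weeks post fertilization. Every fish carried the ctsk:dsRed transgene, in which the promoter of the osteoclast protease gene ctsk drives a red fluorescent protein. The 3 WT libraries came from sibling fish and the 3 clcn7-/- libraries from homozygous mutants, whose allele the labels do not describe. clcn7 encodes the lysosomal chloride/proton exchanger used by osteoclasts to acidify the space under the cell. Each library pooled 5000 cells from each of 2 fish, and the labels call the libraries biological replicates.

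AP-1 is a family of dimers. FOS proteins pair with JUN proteins through a leucine zipper and bind short DNA sites, while JUN proteins can also pair with each other or with ATF3. Most of these genes are transcribed within minutes of a growth factor, cytokine, mechanical or stress signal, through kinases of the MAP kinase family and the serum response factor, with no need for new protein. EGR1 is a zinc finger factor and NR4A1 an orphan nuclear receptor with the same kind of rapid induction. In mice, osteoclasts do not form without Fos, which acts ahead of Nfatc1 below the receptor RANK. The same genes are also known to be switched on while tissue is digested into single cells. Both genotypes went through the same trypsin and collagenase digestion, gradient spin and sort, and RNA made in the animal and RNA made during handling cannot be told apart in these counts.

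Between 22739782 and 26951306 reads were counted on genes per library, and each of the 10 genes had at least 4123 of them in every library. The targeted gene clcn7 stood at 34, 30.5 and 26 CPM (counts scaled to library size, here the gene counts of a library times its TMM factor) in WT and 39.1, 28 and 37.7 CPM in mutants, so its RNA level did not separate the genotypes (log2 fold change 0.21 ± 0.18, edgeR adjusted p = 0.482) and does not check the labels. RNA of ctsk stood at 1022, 463 and 511 CPM in the WT and 1264, 1054 and 1261 CPM in the mutant libraries. Since the sort used a reporter driven by the ctsk promoter, this RNA does not by itself show that the cells were osteoclasts. The libraries also carried transcripts of other cells. The summed level of 12 keratinocyte markers was 52978 to 60172 CPM in WT and 21568 to 32444 CPM in mutants, and that of 10 fibroblast markers, col1a2 among them, was 26320 to 36095 CPM in WT and 16632 to 25258 CPM in mutants. Sums of 14 macrophage markers were 1331 to 2251 CPM in WT and 3426 to 7518 CPM in mutants, and sums of 10 neutrophil markers 509.2 to 601.8 and 2259 to 2604 CPM. In bulk libraries, fewer cells of a type and less RNA per cell cannot be told apart.

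Of the 10 genes, 1 rose and 2 fell in clcn7-/- libraries. nr4a1 rose 2.31-fold, fosab fell to 0.583 of its WT level and junbb to 0.605 of its WT level, as fitted by edgeR. The other 7 did not pass the test (a quasi-likelihood test in edgeR, called at a p under 0.05 after Benjamini-Hochberg adjustment over all genes tested). Among all tested genes 9.91% were called higher and 4.83% lower, against 10% and 20% of the 10. The 10 had a median log2 fold change of -0.36, against -0.05 for all tested genes. In 1 of the 10 every mutant library lay above every WT library, and in 4 every mutant library lay below. Among all tested genes those patterns held for 19.5% and 17.6%. The authors' deposited table gave adjusted p-values under 0.05 for nr4a1, fosab, junbb and fosb.

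**Figure D1:**
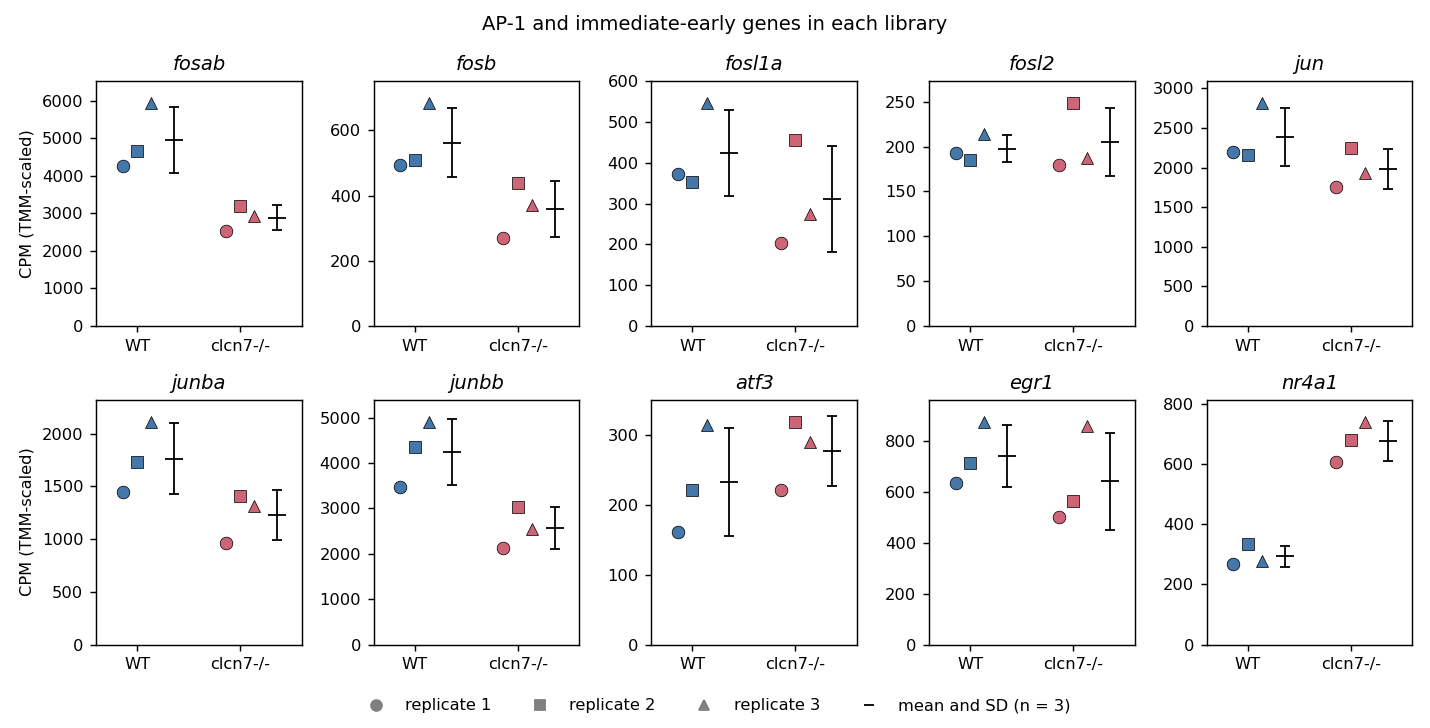
TMM-scaled CPM of each of the 10 genes in the 3 WT and 3 clcn7-/- libraries, with a marker shape per replicate number and the mean and SD (n = 3) beside the points. nr4a1 sits higher in every mutant library, at 606 to 740 CPM against 267 to 333 CPM in WT, while fosab and junbb sit lower.

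The FOS genes come first. fosab (ENSDARG00000031683), a zebrafish counterpart of mammalian FOS, stood at 4258, 4669 and 5928 CPM in WT replicates 1, 2 and 3 and at 2540, 3189 and 2934 CPM in mutant replicates 1, 2 and 3. The genotypes did not overlap, and the lowest WT library was 4258 CPM against 3189 CPM in the highest mutant library. The log2 fold change was -0.78 ± 0.18 (SE), with an edgeR adjusted p of 0.0281. The groups stayed apart with plain library sizes, but the call was lost there (adjusted p = 0.0525). fosb, whose product also dimerizes with JUN proteins, stood at 494.3, 509.2 and 682.6 CPM in WT and 268.7, 438.8 and 371.2 CPM in mutants. Its genotypes did not overlap either, yet the edgeR test was not passed (log2 fold change -0.64 ± 0.22, adjusted p = 0.0897). It passed with DESeq2 (adjusted p = 0.04) and with limma-voom (adjusted p = 0.0444), and in none of the 6 edgeR fits that left out 1 library.

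The FOS-related antigens encoded by fosl1a and fosl2 pair with JUN proteins too, and in mice both act in bone cells. fosl1a stood at 373.5, 351.6 and 545.6 CPM in WT and 204.2, 456.4 and 273.8 CPM in mutants. Mutant replicate 2 exceeded 2 of the 3 WT libraries, so the groups overlapped (log2 fold change -0.44 ± 0.31, edgeR adjusted p = 0.384). fosl2 stood at 192.9, 185.1 and 214.2 CPM in WT and 179.2, 248.2 and 187.1 CPM in mutants. Its groups overlapped and the difference was smaller than its error (0.05 ± 0.16, edgeR adjusted p = 0.867), with a negative sign under upper-quartile factors and without mutant replicate 2.

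The JUN genes encode the partners of the FOS proteins. junbb (ENSDARG00000104773), 1 of the pair of zebrafish counterparts of mammalian JUNB, stood at 3480, 4350 and 4910 CPM in WT and 2125, 3041 and 2544 CPM in mutants. All mutant libraries lay below all WT libraries (log2 fold change -0.72 ± 0.20, edgeR adjusted p = 0.0473). The call was lost with plain library sizes (adjusted p = 0.0936) and with no filter on low counts (adjusted p = 0.0544). Its duplicate junba stood at 1442, 1730 and 2111 CPM in WT and 958, 1412 and 1310 CPM in mutants. The groups were apart by a narrow margin, between 1412 CPM in mutant replicate 2 and 1442 CPM in WT replicate 1, and overlapped with plain library sizes. junba did not pass (log2 fold change -0.52 ± 0.21, edgeR adjusted p = 0.136). jun, the AP-1 partner that activates transcription most strongly in mammals, stood at 2200, 2157 and 2812 CPM in WT and 1755, 2250 and 1933 CPM in mutants. Mutant replicate 2 lay above 2 WT libraries, and jun did not pass (-0.27 ± 0.17, edgeR adjusted p = 0.336).

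The remaining genes lie outside the FOS and JUN families. nr4a1 (ENSDARG00000000796) had the smallest p of the 10. It stood at 267.4, 332.6 and 277.2 CPM in WT and 606.4, 679.8 and 739.8 CPM in mutants. The lowest mutant library exceeded the highest WT library by far more than the spread within either genotype (SD 35.2 CPM in WT and 66.8 CPM in mutants, n = 3). The log2 fold change was 1.21 ± 0.15, with an edgeR adjusted p of 0.00292. In mammals NR4A1 is induced by inflammatory stimuli in macrophages and limits their inflammatory gene expression. atf3, a stress-induced factor that as a homodimer represses transcription in mammals, stood at 162, 221.7 and 315.1 CPM in WT and 222.1, 319.4 and 291.1 CPM in mutants. Its WT libraries alone spanned nearly the whole range of the 6, and it did not pass (0.25 ± 0.26, edgeR adjusted p = 0.56). egr1, a target of serum response factor, stood at 633.2, 711.9 and 873.4 CPM in WT and 501.9, 561.6 and 855.7 CPM in mutants. Mutant replicate 3 lay among the WT libraries and the other mutants below them (-0.21 ± 0.23, edgeR adjusted p = 0.595).

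**Figure D2:**
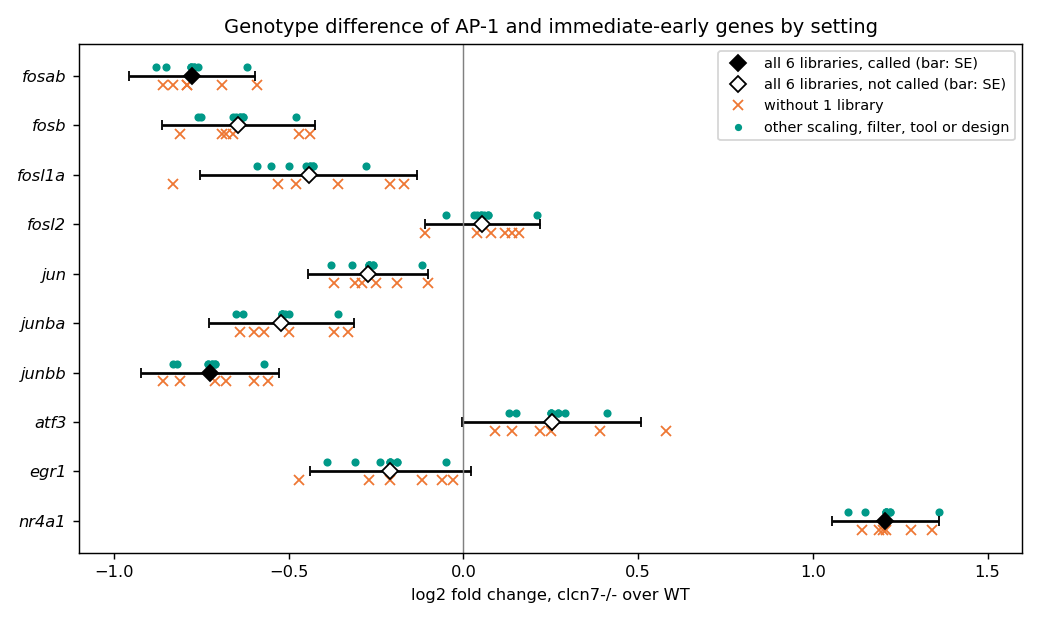
Log2 fold change (clcn7-/- over WT) of each gene. Diamonds are the fit with all 6 libraries with its SE, filled where the adjusted p is under 0.05, crosses are the 6 fits that leave out 1 library, and dots are the 9 other settings; nr4a1 stays between 1.1 and 1.36 over these settings and fosab between -0.88 and -0.59.

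The 3 calls did not rest equally on single libraries. nr4a1 stayed called in all 6 fits without 1 library, with edgeR adjusted p between 0.00756 and 0.0199. fosab kept its call without WT replicate 1 (adjusted p = 0.0361) and without mutant replicate 2 (adjusted p = 0.0433). It lost the call without WT replicate 2 (adjusted p = 0.0847), WT replicate 3 (adjusted p = 0.13), mutant replicate 1 (adjusted p = 0.0932) or mutant replicate 3 (adjusted p = 0.0676). junbb lost it without the same libraries (edgeR adjusted p of 0.157, 0.202, 0.138 and 0.109). The signs of these 3 log2 fold changes were the same in every fit run. Against a fold of 1.5 with glmTreat, nr4a1 stayed called (adjusted p = 0.0161), and fosab and junbb did not (adjusted p of 0.343 and 0.486).

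The genes shared an order of libraries within each genotype. Among WT libraries, replicate 3 was highest for 9 of the 10, with nr4a1 the exception. Among mutant libraries, replicate 1 was lowest for all 10 and replicate 2 highest for 8. Over all tested genes, WT replicate 3 was the highest WT library in 31% and mutant replicate 1 the lowest mutant library in 28.5%. The 10 genes together took 1.30%, 1.43% and 1.76% of gene counts in WT replicates 1, 2 and 3 and 0.952%, 1.34% and 1.24% in the mutant replicates, so on this sum mutant replicate 2 exceeded WT replicate 1. Without fosab and junbb the other 8 took 0.556%, 0.584% and 0.736% in WT and 0.478%, 0.677% and 0.646% in mutants, and the genotypes overlapped. A fit without WT replicate 3 and mutant replicate 1, chosen after the data were seen, left 2 libraries a group. It called none of the 10 in edgeR (293 genes called in all, and 4156 at an unadjusted p under 0.05), with log2 fold changes of 1.24 for nr4a1 (adjusted p = 0.0622), -0.54 for fosab (adjusted p = 0.274) and -0.49 for junbb (adjusted p = 0.359). For fosab and junbb the libraries left out were the highest WT and the lowest mutant, so their smaller falls followed from that choice.

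Heat shock genes, which encode chaperones induced by heat and protein damage, followed a similar order within genotypes. Of 27 tested, WT replicate 3 was the highest WT library for 17 and mutant replicate 1 the lowest mutant library for 16. Of 39 other immediate-early genes tested, the same held for 24 and 20. hsp90aa1.2, an inducible HSP90 gene, stood at 982.5, 1089 and 1540 CPM in WT and 641.5, 1214 and 918.5 CPM in mutants. The HSP70 gene hsp70.3 stood at 1468, 1677 and 1944 CPM in WT and 1147, 1963 and 1518 CPM in mutants. hsp70.1, hsp70.2, hsp70.3 and hsp70l are near-identical copies, so a read can match more than 1 of them. How the authors' counting treated such reads was not stated. None of these genes passed. The log2 fold change was -0.38 for hsp90aa1.2 and between -0.15 and 0.20 for these HSP70 copies. Between genotypes, 1 heat shock gene rose and 2 fell (median log2 fold change of the list -0.14). These are 3.7% and 7.41% of those tested, against 9.91% and 4.83% of all tested genes. The constitutive HSP70 gene hspa8 rose (0.50 ± 0.14, edgeR adjusted p = 0.046), while the co-chaperone gene bag3 (-1.46 ± 0.29, adjusted p = 0.0166) and the heat shock factor gene hsf2 (-0.98 ± 0.20, adjusted p = 0.0188) fell. Leaving out any 1 library ended the call of hspa8, with adjusted p from 0.0677 to 0.128. For bag3 the library was WT replicate 3 (adjusted p = 0.0699), and for hsf2 any WT replicate or mutant replicate 1 (adjusted p from 0.0659 to 0.0759). Whether handling had a part in the shared order was not tested.

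**Figure D3:**
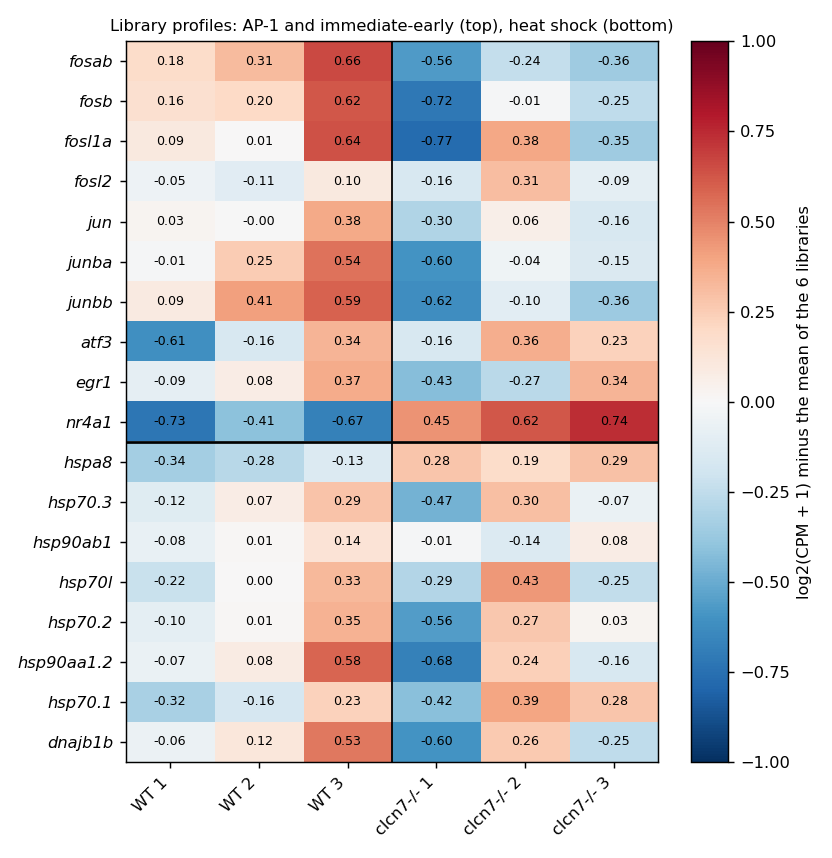
Colour and number give log2(CPM + 1) of a gene in a library minus the gene's mean over the 6 libraries, for the 10 genes (top) and the 8 heat shock genes with the highest mean CPM (bottom). WT replicate 3 is the highest WT column and clcn7-/- replicate 1 the lowest mutant column in most rows. nr4a1 is set apart by its step between genotypes, with -0.73 to -0.41 in WT and 0.45 to 0.74 in mutants.

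Ratios of genes within a library depend little on its scaling. They were taken on the log2(CPM + 1) scale for 6 pairs and compared by a two-sided exact permutation test, whose smallest possible p with 3 against 3 libraries is 0.1. The ratio of fosab to jun was 0.953, 1.11 and 1.08 in WT and 0.533, 0.503 and 0.602 in mutants. The genotypes were far apart relative to the spread within each (mutant minus WT -0.50, SD 0.084 and 0.051, exact p = 0.1, adjusted over the 6 pairs 0.2). Hence fosab was lower relative to jun in 3 of 3 mutant libraries than in any WT library. The ratio of junba to junbb also separated the genotypes, at -1.27, -1.33 and -1.22 in WT and -1.15, -1.11 and -0.957 in mutants (mutant minus WT 0.20, exact p = 0.1, adjusted 0.2). The ratio of fosl1a to fosl2 went from 0.95, 0.922 and 1.35 to 0.187, 0.876 and 0.547 (exact p = 0.1, adjusted 0.2).

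The other 3 ratios overlapped between genotypes. fosb to fosab averaged -3.14 in WT and -3.02 in mutants (exact p = 0.4). jun to jund, the JUN family gene that is not an immediate-early gene in mammals, averaged 1.94 and 1.83 (exact p = 0.4). fosab to its duplicate fosaa averaged 10.8 and 10.1 (exact p = 0.2) and rests on fosaa levels of 0.9 to 3.5 CPM. No pair could pass an adjusted p of 0.05 at this size.

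**Figure D4:**
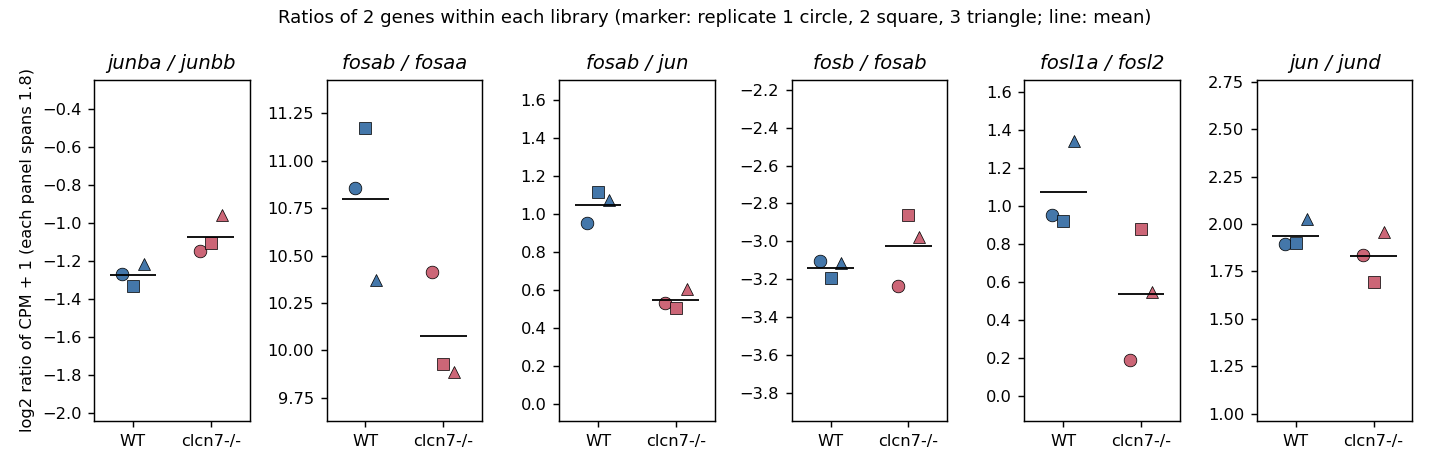
Log2 ratio of CPM + 1 for 6 gene pairs in each library, with a line at each genotype's mean; every panel spans 1.8 units. The fosab to jun ratio lies at 0.953 to 1.11 in WT and 0.503 to 0.602 in mutants, and those of fosb to fosab and jun to jund overlap.

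Genes with the most similar course over the 6 libraries were found by the root mean square difference of centred log2(CPM + 1) profiles. The search covered 11303 other genes with a mean of at least 5 CPM. Most genes with only a clone, locus or model name had been left out of it. The nearest genes are the smallest of 11303 differences over only 6 libraries, and shared regulation was not tested. Nearest to junba was spry4, which encodes a Sprouty inhibitor of receptor tyrosine kinase signalling (difference 0.043), at 140.6, 161.5 and 211.1 CPM in WT and 95.1, 131.1 and 123.6 CPM in mutants. Nearest to junbb was klf11a, a zinc finger factor gene (0.077), followed by apln, which encodes the peptide apelin (0.084). fosab was nearest to serpinb14 (0.075) and the mitochondrial carrier gene slc25a10 (0.077), and fosb to the Polycomb gene cbx7a (0.071) and the arrestin-domain gene arrdc3a (0.084). For fosl1a the nearest genes were homeza (0.091) and the circadian gene per2 (0.110), for fosl2 ipo8 (0.045) and trim8b (0.075), and for jun gemin7 (0.065) and pgm1 (0.068). atf3 was nearest to the tissue factor gene f3b (0.121) and slc25a25b (0.123), and nr4a1 to RASSF5 (0.079) and itm2cb (0.103). egr1 was nearest to an unnamed transcript model (0.060) and hpf1 (0.069).

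Other bZIP genes of the AP-1 and CREB/ATF families gave 4 higher and 1 lower of 26 tested, with a median log2 fold change of -0.17. These are 15.4% and 3.85%, against 9.91% and 4.83% of all tested genes. The fit without WT replicate 2 called 1 higher, and that without WT replicate 3 called 2. The small MAF gene mafk fell (-0.96 ± 0.24, edgeR adjusted p = 0.0339), and 5 of 6 fits without 1 library lost its call, all but that without mutant replicate 2, with adjusted p from 0.0562 to 0.136. Among the risen genes, and named after their values were seen, were atf4a, a factor of the integrated stress response (0.63 ± 0.13, edgeR adjusted p = 0.0188), and batf3, at 0.2 to 0.7 CPM in WT and 2.4 to 4 CPM in mutants. atf4a lost its call without WT replicate 2 (adjusted p = 0.0641), WT replicate 3 (adjusted p = 0.0528) or mutant replicate 1 (adjusted p = 0.0658), and batf3 without WT replicate 2 (adjusted p = 0.0572). The duplicate atf4b was more abundant than atf4a, with means of 742.7 CPM in WT and 630.1 CPM in mutants. It did not pass and had the opposite sign (-0.24 ± 0.15, edgeR adjusted p = 0.345). jund (-0.15 ± 0.18) and jdp2b (-0.44 ± 0.18), whose mammalian counterpart encodes a repressor that dimerizes with JUN, did not pass (edgeR adjusted p of 0.633 and 0.145).

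Other immediate-early genes went both ways, 4 higher and 5 lower of 39 tested, with a median log2 fold change of -0.32. These are 10.3% and 12.8%, against 9.91% and 4.83% of all tested genes. cebpb, a bZIP factor of myeloid cells, rose from 675.2, 643.4 and 932.5 CPM to 1808, 1715 and 2038 CPM (1.30 ± 0.18, edgeR adjusted p = 0.00449). egr3, a relative of egr1, rose from 13.6, 16.8 and 16.1 CPM to 33, 42.1 and 29.1 CPM (1.17 ± 0.18, edgeR adjusted p = 0.00661). Fallen were klf4, a Krüppel-like factor gene of epithelia (-1.31 ± 0.21, edgeR adjusted p = 0.00754), and nfil3-5, a bZIP repressor gene (-1.29 ± 0.23, edgeR adjusted p = 0.00994). These 4 calls held in all 6 fits without 1 library. Also called, and named after their values were seen, were egr2a and gadd45aa (higher) and csrnp1a, klf2a and btg2 (lower). The 5 lower genes became 4 with plain library sizes, 9 with upper-quartile factors and 11 with DESeq2. Without 1 library they numbered 2 to 6, fewest without WT replicate 3. The 4 higher genes became 6 with plain library sizes and with DESeq2. Of the genes named last, gadd45aa held without any 1 library, egr2a lost its call without WT replicate 2 (adjusted p = 0.0556), csrnp1a and klf2a each lost it in 4 of the 6 fits (adjusted p up to 0.0899 and 0.0968) and btg2 in 5 (up to 0.149). The duplicates egr2b (-0.15), gadd45ab (-0.45), csrnp1b (-0.34) and klf2b (0.59) did not pass (edgeR adjusted p of 0.694, 0.198, 0.223 and 0.0698). All but csrnp1b had the opposite sign to the called copy, and klf2b was higher in every mutant library than in any WT library. The nr4a1 relatives nr4a2b (-1.18 ± 0.37) and nr4a3 (-0.12 ± 0.34) did not pass (edgeR adjusted p of 0.0717 and 0.846).

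**Figure D5:**
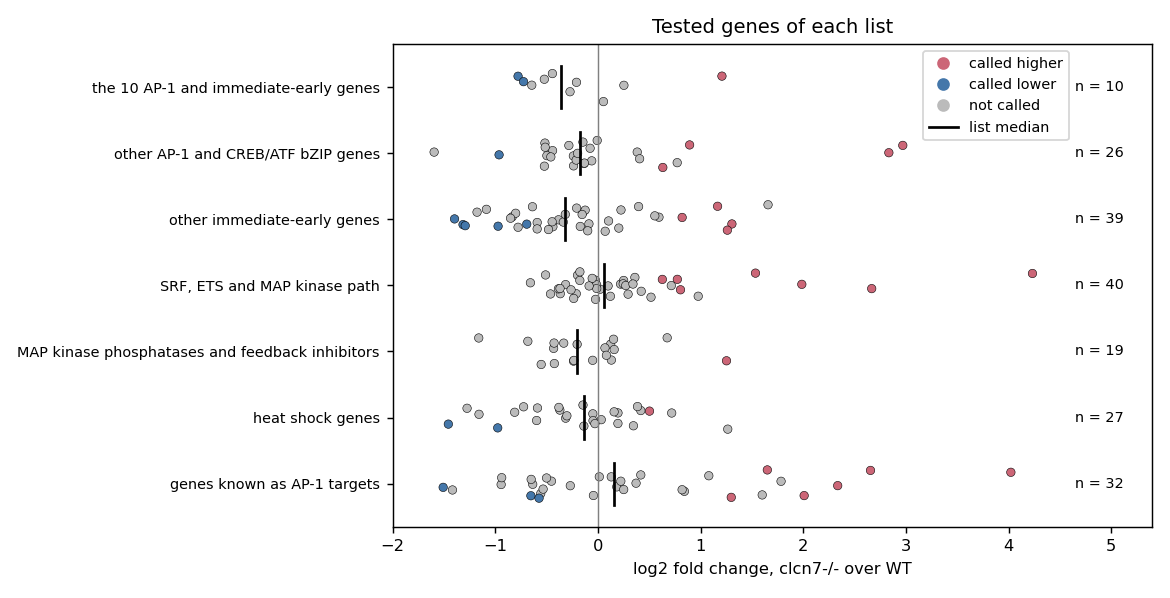
Log2 fold change (clcn7-/- over WT) of every tested gene in 7 lists, coloured by call, with a bar at each list's median; vertical scatter has no meaning. The list of AP-1 and immediate-early genes has a median of -0.36, with nr4a1 alone called higher. The MAP kinase list holds 7 genes called higher (17.5%, against 9.91% of all tested genes).

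Upstream of AP-1, the list of serum response factor, ETS and MAP kinase genes had 7 higher of 40 tested (17.5%, against 9.91% of all tested genes). Its median log2 fold change was 0.06, and 4 to 7 were higher without 1 library, fewest without WT replicate 2. The higher count was 5 with upper-quartile factors and 9 with plain library sizes and with DESeq2. No gene of the list was called lower by edgeR with TMM factors, and 2 lower genes had an unadjusted p under 0.05. DESeq2 called 1 lower, as did edgeR with upper-quartile factors. mapk11, a p38 kinase gene, rose from 7.2, 4.7 and 5.7 CPM to 35.1, 30.6 and 45.9 CPM (2.67 ± 0.24, edgeR adjusted p = 0.000954). map3k8, whose mammalian product relays Toll-like receptor signals to ERK, rose from 19.2, 9.7 and 13.4 CPM to 58.6, 46.2 and 63.1 CPM (1.99 ± 0.26, edgeR adjusted p = 0.00347). Both held without any 1 library. The JNK genes mapk8a, mapk8b, mapk9 and mapk10, whose products phosphorylate JUN in mammals, did not pass, with log2 fold changes between -0.46 and -0.02. The serum response factor genes srfa (-0.37 ± 0.17) and srfb (-0.51 ± 0.32) did not pass either.

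Among MAP kinase phosphatases and other feedback inhibitors, 1 of 19 tested rose (5.26%, against 9.91% of all tested genes). That was dusp2, a phosphatase gene of immune cells, from 84.5, 57.7 and 96.4 CPM to 155.7, 163.7 and 249 CPM (1.25 ± 0.25, edgeR adjusted p = 0.0169), and its call was lost without WT replicate 2 (adjusted p = 0.0509). None was called lower by edgeR with TMM factors and all 6 libraries, and 2 had an unadjusted p under 0.05 in that direction. DESeq2 called 1 lower, as did edgeR with upper-quartile factors or without mutant replicate 2. dusp1, an immediate-early phosphatase gene, stood at 1478, 1239 and 1654 CPM in WT and 1575, 1372 and 1270 CPM in mutants, with overlapping groups (-0.05 ± 0.16, edgeR adjusted p = 0.873).

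Genes known in mammals as AP-1 targets had 6 higher and 3 lower of 32 tested, with a median log2 fold change of 0.16. These are 18.8% and 9.38%, against 9.91% and 4.83% of all tested genes. Without 1 library the numbers ranged from 5 to 9 higher, with 9 without WT replicate 1, and from 1 to 4 lower, with 1 without WT replicate 2, WT replicate 3, mutant replicate 1 or mutant replicate 3. The cytokine gene il1b rose from 21.3, 6.5 and 23 CPM to 254.2, 356.3 and 215.5 CPM (4.02 ± 0.48, edgeR adjusted p = 0.00244). tgfb1b, which encodes a transforming growth factor, rose by 1.65 ± 0.14 (edgeR adjusted p = 0.000855), while its duplicate tgfb1a fell (-0.57 ± 0.16, edgeR adjusted p = 0.0468), a call that no fit without 1 library kept (adjusted p from 0.057 to 0.172). The hyaluronan receptor gene cd44a fell (-1.51 ± 0.26, edgeR adjusted p = 0.00987), while its duplicate cd44b rose (2.01 ± 0.39, edgeR adjusted p = 0.014) and lost that call without WT replicate 2 (adjusted p = 0.0582). The duplicates tgfb1a and cd44b were named after their values were seen. nfatc1, the osteoclast factor that acts after Fos in mice, stood at 106.5, 148.3 and 124.7 CPM in WT and 73.4, 92.3 and 75.6 CPM in mutants, and fell (-0.65 ± 0.17, edgeR adjusted p = 0.0415). The call of nfatc1 was lost with plain library sizes (adjusted p = 0.0888) and without WT replicate 2 (adjusted p = 0.17), WT replicate 3 (adjusted p = 0.14), mutant replicate 1 (adjusted p = 0.126) or mutant replicate 3 (adjusted p = 0.103). ctsk (0.84 ± 0.30), mmp9 (-0.04 ± 0.22) and acp5a (0.42 ± 0.47), which encode enzymes of bone resorption, did not pass (edgeR adjusted p of 0.102, 0.922 and 0.598). Even so, ctsk was higher in every mutant library than in any WT library. A matrix metalloproteinase gene of this list, not reported here by name, was among the 6 called higher.

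Markers of other cell types moved with genotype beside these genes. Of 14 macrophage markers 12 rose, of 10 tested neutrophil markers 10 rose and of 8 erythroid markers 7 rose, with median log2 fold changes of 2.77, 3.0 and 2.19. Without 1 library the neutrophil count stayed at 10, the macrophage count was 9 to 12 and the erythroid count 4 to 8, lowest without WT replicate 3. Of 12 keratinocyte markers 8 fell, of 10 tested osteoblast markers 3 and of 9 tested fibroblast markers 3, with medians of -1.35, -0.88 and -0.62. These lower counts varied when single libraries were left out. The keratinocyte count was 2 without WT replicate 3, 4 without mutant replicate 1 and 6 to 10 in the other fits. The osteoblast count was 2 without WT replicate 2, mutant replicate 2 or mutant replicate 3 and otherwise 3 or 4. The fibroblast count was 2 without WT replicate 1 or mutant replicate 1 and otherwise 0. In the keratinocyte and osteoblast lists, the 2 lower markers with the smallest p stayed called in all 6 fits without 1 library. DESeq2 called 10 keratinocyte, 6 osteoblast and 5 fibroblast markers lower. Endothelial markers gave 4 higher and 1 lower of 9, lymphocyte markers 2 higher of 8, and osteoclast markers 1 of 12 in each direction. The osteoclast share is 8.33% each way, against 9.91% higher and 4.83% lower among all tested genes. The lower endothelial call held only without mutant replicate 2, the lymphocyte count was 0 to 2 (4 with DESeq2), with 0 without WT replicate 3, mutant replicate 1 or mutant replicate 3, and the higher osteoclast count was 4 without WT replicate 1. The lower osteoclast call was that of nfatc1. Among all markers, the osteoblast gene bglapl was at 0 in every library. The order of libraries in the marker sums was mixed. The summed neutrophil markers had WT replicate 3 highest of WT (509.2, 514.6 and 601.8 CPM) and mutant replicate 1 lowest of the mutants (2259, 2604 and 2336 CPM). Of these WT sums, srgn alone gave 260.6, 355.5 and 361.7 CPM. Taken singly, 4 of the 10 neutrophil markers were highest of WT in replicate 3. Mutant replicate 1 was the lowest mutant library for 5, and both held for 2. The summed endothelial markers were also lowest of the mutants in replicate 1 (324.3, 1002 and 539.2 CPM). In WT they were lowest in replicate 3 (160.4, 175.9 and 147.6 CPM). The summed lymphocyte markers were highest in WT replicate 3 (17.5, 15.5 and 19.4 CPM). In mutants they were lowest in replicate 2 (37.35, 26.45 and 85.24 CPM). The summed fibroblast markers had the opposite order, lowest in WT replicate 3 (33947, 36095 and 26320 CPM). They were highest in mutant replicate 1 (25258, 24439 and 16632 CPM). The summed osteoblast markers were lowest in WT replicate 3 (5716, 6180 and 4278 CPM). The summed keratinocyte markers were highest in WT replicate 1 (60172, 52978 and 58052 CPM) and the summed macrophage markers lowest in mutant replicate 2 (6120, 3426 and 7518 CPM). The part of cell composition in the falls of fosab and junbb and the rise of nr4a1 was not tested.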

How the data were processed

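The authors deposited 1 file of whole-number read counts over genes for each library. The submitters' processing notes name HTSeq 0.9.1, STAR 2.7.0a, DESeq2, Trim Galore and the assembly GRCz11. Annotation and strand setting were not stated in those sources, so reads of overlapping or antisense genes cannot be told apart. Counts in 5 rows naming no gene (20.1% to 23.0% of all rows' counts) were left out. The authors' deposited table also holds log2 values and log2 fold changes and an adjusted p-value per gene, of which only the calls and identifiers of the 10 genes are given.

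Low genes were removed by filterByExpr (at least 10 counts, and 15 in total). Counts were scaled by library sizes over all gene rows times TMM factors, which were computed on the genes kept. The factors were 0.94 to 0.964 in WT and 1.017 to 1.084 in mutants, so they did not overlap between genotypes. Tests were run with edgeR 4.0.16 (glmQLFit, glmQLFTest) in R 4.3.3 with genotype as the only term. The version of limma was 3.58.1 and that of DESeq2 1.42.0. Benjamini-Hochberg adjustment ran over 20438 genes. SE is the log2 fold change divided by the square root of F. The steps were tested on simulated data. The common biological coefficient of variation was 35.3%, and p-values measure only the spread between these libraries. Alternatives were leaving out each library, glmTreat (fold of 1.5), RLE, upper-quartile and plain library sizes, no filter and a stricter one, a replicate block, DESeq2 and limma-voom with quality weights. From each list the named genes are the 2 called higher and the 2 called lower with the smallest p, except that some genes of the lists are counted but not reported here by name; hsp90aa1.2, hsp70.3 and other genes given as not called were named after their values were seen. The planned count of promoter motifs was not made, since no promoter sequences were used here. The 10 genes and all lists were chosen with earlier results of these data known, and lists received no test.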

Additional observations from a re-analysis of the deposited data

How the results depend on the processing

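The single higher gene, nr4a1, was called under every alternative planned. The 2 lower genes became 0 with plain library sizes and with glmTreat against a fold of 1.5, and 1 with no filter on low counts. They became 3, with fosb added, under DESeq2 and under limma-voom, and numbered 0 to 2 without 1 library. They stayed at 2 with the replicate number as a block. Adjusted p-values ranged from 0.000657 to 0.343 for fosab, from 0.00534 to 0.486 for junbb and from 7.85e-12 to 0.0622 for nr4a1 across the alternatives. Signs changed for fosl2 (-0.05 with upper-quartile factors, and -0.11 to 0.16 without 1 library). Without both WT replicate 3 and mutant replicate 1 the log2 fold change was 0.2 for fosl2, 0.01 for fosl1a (-0.83 to -0.17 without 1 library) and 0.07 for egr1 (-0.47 to -0.03). That fit, added after the data were seen, called 0 of the 10 in either direction and 293 genes in all. For fosl2, fosl1a and egr1 too, it left out the highest WT and the lowest mutant library. Their higher values followed from that choice. Among all genes 3013 were called, 4579 with DESeq2, 1191 with glmTreat and 1356 to 2527 without 1 library; the cause was not tested. Calls split into 2026 higher and 987 lower with TMM, 1787 and 1675 with upper-quartile factors and 2629 and 564 with plain library sizes, where the median log2 fold change of all genes was -0.05, -0.16 and 0.10. With the replicate block 3007 genes were called. The labels do not say whether these numbers pair the libraries. Deviations of same-numbered libraries from their genotype means correlated at 0.236, 0.033 and 0.162 across genes. Deviations of differently numbered libraries correlated at -0.211 to 0.035. Whether the libraries are paired cannot be settled from these values. The block ended the call of hspa8 (adjusted p = 0.0783). Gene ratios kept their sign under each pseudocount (0.1 and 5 CPM), with plain library sizes and without each library. Depth limits fosaa and batf3, at a few CPM.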
